A study of Mus musculus with 6 samples.

Results

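The major histocompatibility complex (MHC) class II genes were followed in bulk RNA-seq of acute myeloid leukaemia (AML) blasts from 6 mice. The set holds 10 genes, chosen by name for their part in class II antigen presentation, out of 53458 genes with a transcript in the quantification, and all 10 were among the 22170 genes tested. The blasts came from 3 Cebpa-/p30Tet2+/+ mice (mice 19, 23 and 24) and 3 Cebpa-/p30Tet2-/- mice (mice 5, 7 and 8), with 1 library per mouse and between 13036643 and 32855343 estimated reads per library. Both genotypes carried 1 Cebpa allele that makes only the short p30 form and 1 floxed Cebpa allele that Mx1-Cre deleted after poly(I:C) injection. The Tet2-/- blasts had in addition lost both floxed Tet2 alleles through the same Cre, which acts in interferon-responsive cells and not in 1 lineage alone. Donor bone marrow was grown in lethally irradiated C57BL/6J.SJL females aged 10 to 12 weeks, and live CD45.2+ cells negative for CD3, B220 and Ter119 were sorted from the marrow of moribund recipients. The sort leaves out most T, B and erythroid cells and keeps monocytes, conventional dendritic cells and granulocytes beside the blasts, and B220 also marks plasmacytoid dendritic cells. The comparison asked whether blasts without TET2 differed from blasts with TET2 in the transcripts that load and display peptides for CD4+ T cells.

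MHC class II molecules are pairs of an alpha and a beta chain that carry peptides from endosomes to the cell surface. The invariant chain, encoded by Cd74, binds new class II pairs, blocks their groove and guides them to the endosome. H2-DM (H2-DMa with H2-DMb1 or H2-DMb2) then removes the last fragment of the invariant chain, and H2-O (H2-Oa with H2-Ob) restrains H2-DM. CIITA, the class II transactivator, binds no DNA itself and works through RFX, CREB and NF-Y proteins that sit on the X and Y boxes of class II promoters. Dendritic cells, B cells and macrophages are the classical carriers of class II, and myeloid blasts can express it as well. Cells of the C57BL/6 background have the b haplotype, which lacks a working E alpha gene, so that H2-A is the class II molecule they show at the surface.

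Of the members, 7 had an entry in the RefSeq promoter windows of build GRCm38.p6, which run from 250 bases before to 50 bases after an annotated start: H2-Oa, H2-DMa (with 2 starts), H2-DMb2, H2-DMb1, H2-Ob, H2-Aa and H2-Eb1. The Y-box core TGATTGG, searched on both strands, was found in 6 of these 7 genes and in 7.82% of all 32851 windows. The X-box half-site GCAAC, starting between 30 and 33 bases before the ATTGG of a Y-box core on the same strand, was found in 4 of the 7 genes and in 66 of all windows, which is 0.201%. The spacing was set after the member promoters had been seen, so the count in the members is a description. The 52 bases up to the end of the Y-box core are shown for the 4 genes with both motifs, because they carry the class II signature shared by the alpha, beta and H2-O chain genes. They are read 5′ to 3′ in the direction of the gene, and the capitals mark the X-box half-site and the Y-box core.
H2-Aa: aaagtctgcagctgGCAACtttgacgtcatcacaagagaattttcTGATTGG
H2-Eb1: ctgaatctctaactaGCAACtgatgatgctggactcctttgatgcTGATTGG
H2-Oa: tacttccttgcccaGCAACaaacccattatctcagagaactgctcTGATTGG
H2-Ob: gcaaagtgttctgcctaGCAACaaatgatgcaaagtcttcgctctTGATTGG

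These stretches lie at chr17:34287867-34287918 on the minus strand for H2-Aa, and on the plus strand at chr17:34305761-34305812 for H2-Eb1, chr17:34092289-34092340 for H2-Oa and chr17:34238801-34238852 for H2-Ob. The Y-box core began 50 bases before the annotated start in H2-Aa, 61 in H2-Eb1, 45 in H2-Oa and 59 in H2-Ob. The beta chain genes H2-DMb1 and H2-DMb2 had the Y-box core 63 and 92 bases before their starts and no match to the half-site at the fixed spacing. Their 2 stretches of 52 bases, taken the same way, were identical at 47 positions, against 40 for H2-Eb1 and its neighbour H2-Eb2. Neither window of H2-DMa held the Y-box core. A match or its lack says only whether these letters stand in the window, and factor binding was not measured here.

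**Figure D1:**
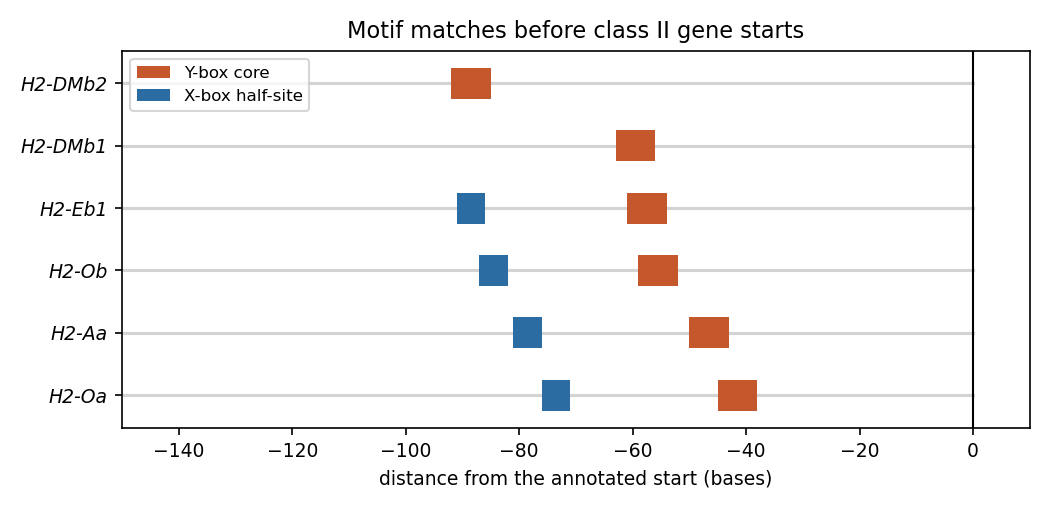
Positions of the Y-box core (orange) and the X-box half-site (blue) before the annotated start of 6 class II genes; the x axis is the distance from the start in bases. The Y-box core lies 45 to 92 bases before the start, and the half-site accompanies it in 4 genes.

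All 10 members were detected in every mouse. On the TPM scale, which gives each transcript's level per length as a share of the library, Cd74 was highest, with 212 ± 94.8 TPM (SD, n = 3) in Tet2+/+ and 151 ± 33.9 TPM in Tet2-/- blasts. H2-Aa, the alpha chain of the H2-A molecule, followed at 90.4 ± 30.2 and 63.8 ± 18.9 TPM. Its partner H2-Ab1, the beta chain, had 71.2 ± 28.4 and 51.1 ± 16.5 TPM, and H2-Eb1, the beta chain of H2-E, had 52.6 ± 18.4 and 42.9 ± 13.7 TPM. This order of the 4 most abundant members was the same in 6 of 6 mice. In mouse 19, however, H2-Aa and H2-Ab1 were almost level, at 91.38 and 91.36 TPM. The peptide exchange genes came next, with 32.7 ± 9.21 and 23.7 ± 1.80 TPM for H2-DMb1 and 34.8 ± 20.6 and 20.95 ± 8.89 TPM for H2-DMa. These 2 genes changed places between mice, and H2-DMb1 was the higher in 4 of 6. H2-DMb2 (3.88 ± 0.946 and 3.32 ± 0.797 TPM), H2-Ob (3.47 ± 1.99 and 2.93 ± 0.704 TPM) and H2-Oa (3.19 ± 0.395 and 2.86 ± 0.439 TPM) lay close together. H2-Ob was above H2-Oa in only 2 of 6 mice, so these neighbours did not differ beyond their spread. Ciita, the transactivator, was the lowest member at 1.97 ± 0.881 and 1.27 ± 0.370 TPM and was below H2-Oa in 6 of 6 mice.

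Abundance in each mouse was then read as CPM, the reads of a gene relative to all reads of the library after scaling by the TMM factors of edgeR. Cd74 (ENSMUSG00000024610, 18:60803848-60812652) had 380, 620 and 272 CPM in the Tet2+/+ mice 19, 23 and 24, against 422, 318 and 251 CPM in the Tet2-/- mice 5, 7 and 8. H2-Aa (ENSMUSG00000036594, 17:34282744-34287823) had 146, 177 and 89.4 CPM in the Tet2+/+ and 131, 117 and 67.2 CPM in the Tet2-/- mice, in the same mouse order. H2-Ab1 (ENSMUSG00000073421, 17:34257689-34269419) had 133, 114 and 52.8 CPM against 108, 110 and 55.1 CPM. In each of these genes mice 24 and 8 were the lowest of their genotype, and the genotypes overlapped. H2-Eb1 (ENSMUSG00000060586, 17:34305867-34316674) had 125, 123 and 59.2 CPM against 118, 103 and 55.8 CPM. The same 2 mice were low again, at about the same level in each genotype, while the other 4 mice lay between 103 and 125 CPM.

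None of these genes passed the quasi-likelihood test of edgeR between the genotypes. The log2 fold change (Tet2-/- minus Tet2+/+) was -0.36 for Cd74, with a standard error of 0.34, a 95% interval from -1.17 to 0.45 and an adjusted p of 0.832. For H2-Aa it was -0.39 (interval -1.17 to 0.40, adjusted p = 0.812), for H2-Ab1 -0.13 (-1.07 to 0.81, adjusted p = 0.960) and for H2-Eb1 -0.16 (-1.03 to 0.72, adjusted p = 0.945). Each of the 4 intervals held both no change and a fall by more than 1 on the log2 scale. Sign and size rested on single mice, since Cd74 had a log2 fold change of 0.00 without mouse 23. Without mouse 24, every remaining Tet2+/+ mouse lay above every Tet2-/- mouse in H2-Aa, H2-Ab1, H2-Eb1 and Ciita, as it did in 9.82% of the genes averaging 1 CPM or more. Without mouse 8, by contrast, the log2 fold changes of H2-Ab1 and H2-Eb1 were 0.13 and 0.11, on the other side of 0. The estimate for H2-Aa was -0.62 without mouse 24 and -0.15 without mouse 8.

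Ciita (ENSMUSG00000022504, 16:10480059-10528418) had 19.6, 28.4 and 13.7 CPM in the Tet2+/+ and 13.8, 19.2 and 9.88 CPM in the Tet2-/- mice. Mouse 23 was highest and mouse 8 lowest, as in Cd74 and H2-Aa. Its log2 fold change of -0.53 (standard error 0.35, interval -1.36 to 0.31) had an adjusted p of 0.752. In every leave-one-out fit it stayed negative, between -0.79 and -0.23, with adjusted p between 0.526 and 0.9998.

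The H2-DM genes followed the mice in another order. H2-DMa (ENSMUSG00000037649, 17:34119541-34139101) had 41.6, 82.5 and 33.2 CPM in the Tet2+/+ and 27.9, 25.5 and 49.5 CPM in the Tet2-/- mice. Mouse 8, lowest or next to lowest in the 4 abundant members, was here the highest of its genotype. H2-DMb1 (ENSMUSG00000079547, 17:34153072-34160230) had 31.2, 68.1 and 42.3 CPM against 42.9, 38.0 and 27.1 CPM. H2-DMb2 (ENSMUSG00000037548, 17:34143307-34151555) had 10.3, 8.57 and 5.56 CPM against 6.17, 9.58 and 6.84 CPM. Mouse 23 thus led for the first 2 genes and not for the third. The log2 fold changes were -0.61 for H2-DMa (interval -1.57 to 0.34, adjusted p = 0.746), -0.39 for H2-DMb1 (-1.14 to 0.36, adjusted p = 0.8003) and -0.12 for H2-DMb2 (-0.90 to 0.67, adjusted p = 0.957). H2-DMa had the most negative estimate of the 10 members, and it was -0.14 without mouse 23 and -0.97 without mouse 8. Without mouse 8 the genotypes did not overlap in H2-DMa, as in 13.7% of the genes averaging 1 CPM or more. The estimate for H2-DMb1 was -0.05 without mouse 23 and -0.62 without mouse 19. H2-DMb1 and H2-DMb2 are near copies: 31.4% of the 31-base words of H2-DMb1 also occur in other genes' transcripts, all 517 of them in H2-DMb2. How reads were divided between the 2 is therefore an estimate.

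The H2-O genes, which in normal tissue are known mainly from B cells and some dendritic cells, were low but detected in every mouse. H2-Oa (ENSMUSG00000024334, 17:34092340-34095234) had 6.16, 5.68 and 4.44 CPM against 6.04, 5.92 and 4.18 CPM, from 63 to 191 reads per mouse. It had the narrowest range of the members, with 1.47-fold between the highest and the lowest mouse. H2-Ob (ENSMUSG00000041538, 17:34238903-34254414) had 14.1, 8.78 and 3.87 CPM against 10.2, 7.65 and 6.46 CPM, and its 3.63-fold range was the widest. The log2 fold changes were -0.01 for H2-Oa (interval -0.74 to 0.72, adjusted p = 0.997) and -0.13 for H2-Ob (-1.24 to 0.98, adjusted p = 0.968).

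**Figure D2:**
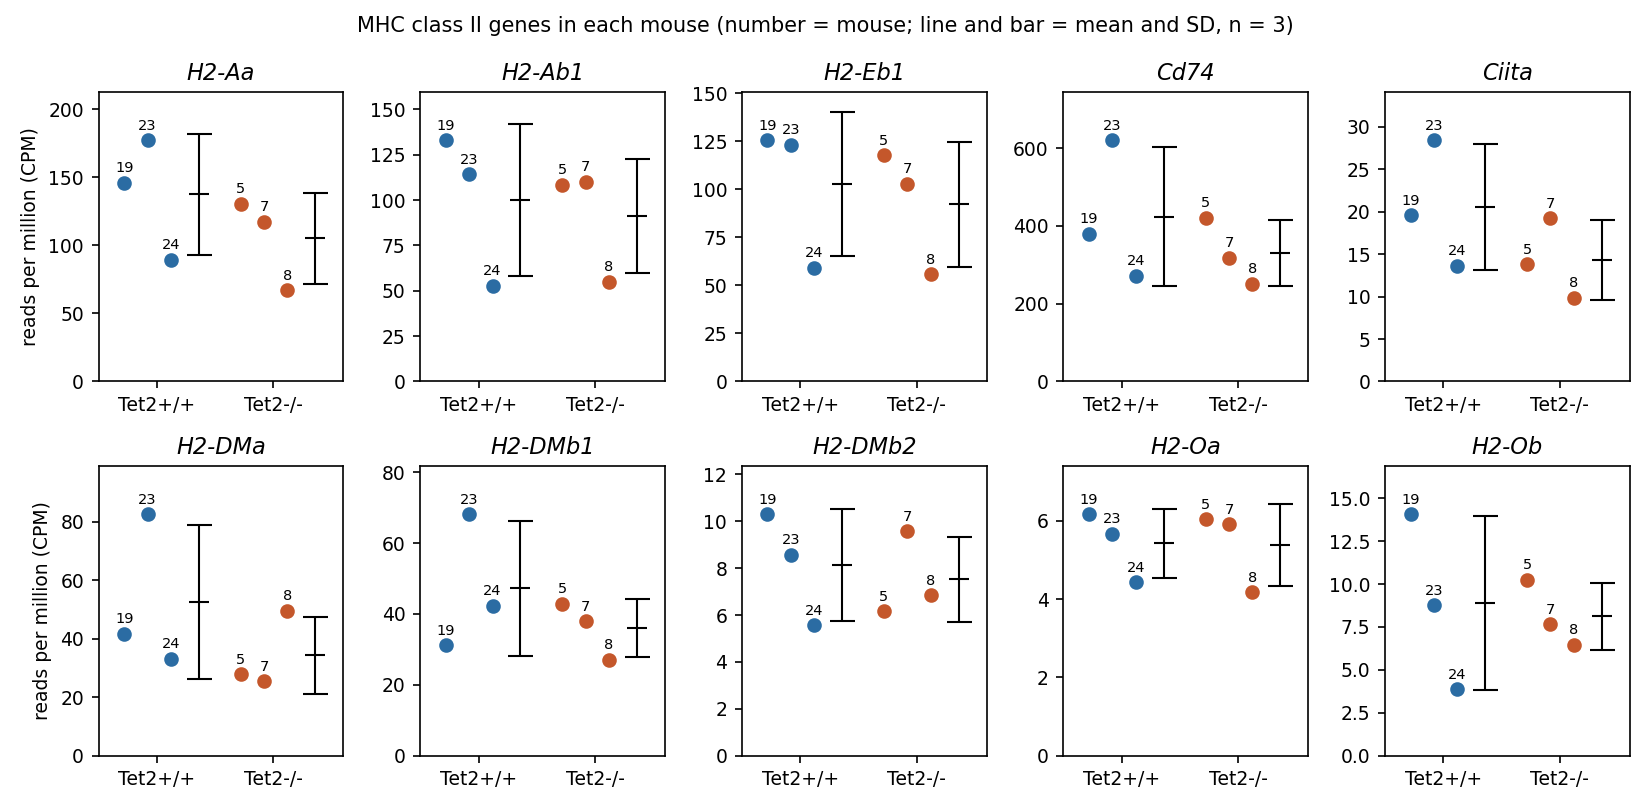
Abundance of the 10 class II genes in CPM (y axis, linear from 0) in each mouse, by Tet2 genotype on the Cebpa-/p30 background; points are mice with their numbers, and the bar beside them is the mean ± SD (n = 3). The genotypes overlap in all 10 panels, and mice 24 and 8 are lowest in H2-Aa, H2-Ab1, H2-Eb1 and Cd74.

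Across the set, 0 of 10 members passed the adjusted threshold of 0.05 by edgeR in either direction. Of all tested genes, 10 passed as lower, which is 0.0451%, and 0 as higher, which is 0% (with unadjusted p, 1799 genes or 8.11% were under 0.05 by edgeR, and DESeq2 called 385 genes or 1.74% in both directions). None of the members was under an unadjusted p of 0.05, and DESeq2 called 0 of 10. All 10 estimates were negative, with a median log2 fold change of -0.26, where the median over all tested genes was 0.00. The members share libraries and moved together over the mice, so that their common sign is not 10 separate results. In 0 of 10 members were the mice of the genotypes apart, where 7.71% of the genes averaging 1 CPM or more lay wholly lower and 8.24% wholly higher in the Tet2-/- mice. The exact two-sided permutation test of single members gave p between 0.3 and 0.9, and 3 mice against 3 cannot give less than 0.10.

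**Figure D3:**
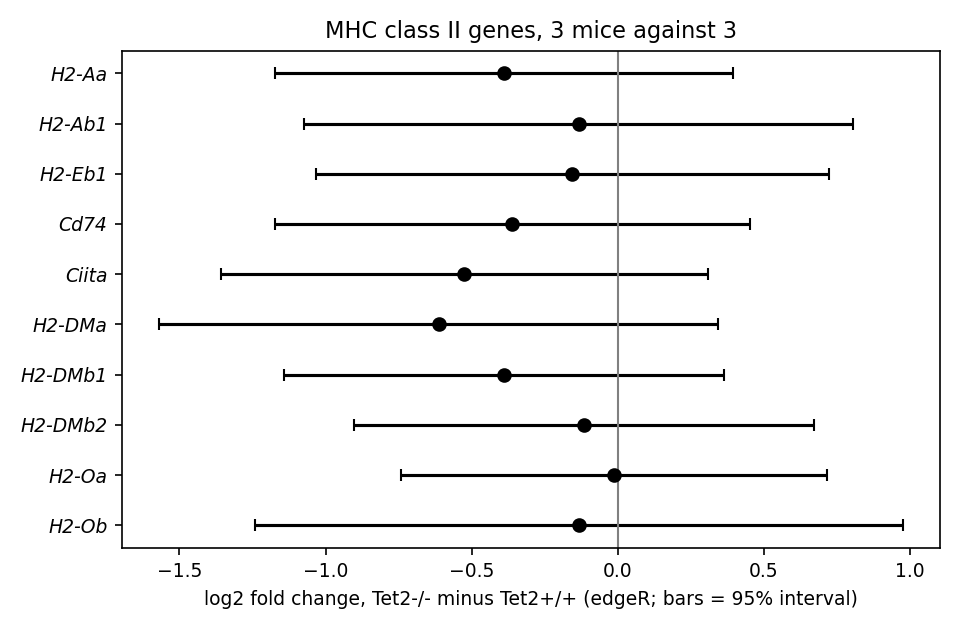
Log2 fold change of each class II gene, Tet2-/- minus Tet2+/+ (x axis), from the edgeR fit over all genes; bars are 95% intervals (3 mice per genotype). All 10 estimates lie between -0.61 and -0.01, and all 10 intervals cross 0.

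The spread between mice of a genotype was wide. The SD of log2 CPM over the 3 Tet2+/+ mice had a median of 0.58 over the members and 0.24 over the 13839 genes that averaged 1 CPM or more. In the Tet2-/- mice the medians were 0.42 and 0.37. The mean log2 CPM of H2-Aa, H2-Ab1, H2-Eb1 and Cd74, centred on the 6 mice, was 0.54 in mouse 23, 0.35 in mouse 19 and 0.26 in mouse 5. It was 0.07 in mouse 7, -0.54 in mouse 24 and -0.68 in mouse 8. High and low mice thus occurred in both genotypes. Of the 45 pairs of members, 13 had a Pearson's r above 0.8 over the 6 mice. The closest were H2-Ab1 with H2-Eb1 (r = 0.98) and H2-Ab1 with H2-Oa (r = 0.97), and only 3 pairs were negative. H2-DMa had lower r than the abundant members had among themselves, from -0.16 with H2-Oa to 0.52 with Cd74, and 0.41 with H2-DMb1. The other negative pairs were those of H2-DMb1 with H2-DMb2 and with H2-Ob (both r = -0.04).

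The genes whose levels over the mice were most like that mean profile were ranked among the 13839 genes, as a description over 6 libraries. Among the first 10 outside the members were Dnajb6 (r = 0.99), Gm26631, Xntrpc, Tnfrsf13c (r = 0.96), Noxred1, Gm5617, Spib (r = 0.95), Hdac7 and Gm17131. Dnajb6, a co-chaperone, varied little in all, between 99.0 and 110 CPM. Tnfrsf13c encodes the BAFF receptor of B cells, and Spib encodes an ETS factor of B cells and plasmacytoid dendritic cells. Among the members, Ciita ranked 55th, H2-Ob 107th and H2-DMa 3267th.

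The B cell genes were low in these cells sorted as negative for B220. Pax5, the factor that keeps B cell identity, had 2.81, 3.64 and 0.634 CPM in the Tet2+/+ and 3.29, 0.836 and 0.163 CPM in the Tet2-/- mice. The genes of the list did not share 1 order over the mice: mouse 8 was lowest in Pax5 and second highest in Cd79b (46.7 CPM), mouse 7 was lowest in Cd22 and mouse 5 in Bank1. All 12 genes of the B cell list were detected and 0 passed the edgeR test (2 had an unadjusted p under 0.05, and DESeq2 called 1). Of the 12 estimates 11 were negative, as were those of all the members, with a median log2 fold change of -0.70. The mice did not overlap in Bank1 and Fcer2a, both lower in the Tet2-/- mice. The summed level of the list was 54.7 to 127 CPM in the Tet2+/+ and 39.1 to 81.8 CPM in the Tet2-/- mice, lowest in mouse 7, and had r = 0.53 with the class II profile over the 6 mice. Over the 10 of these genes that averaged 1 CPM or more, the mean log2 CPM, which weights low and abundant genes alike, had r = 0.82 (Spearman's rho = 0.94) with that profile, and r = 0.57 without mice 23 and 8. Mice 23 and 8 lay farthest from the list's median and were also the highest and lowest of the profile. Leaving them out keeps fewer mice over a narrower range, which by itself can lower r. Within a genotype there are too few mice for a correlation. The part of B cells in the class II levels was not tested, and in bulk RNA fewer cells of a type and less RNA per cell cannot be told apart.

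Monocyte genes took another order. Csf1r, the receptor for the macrophage growth factor, had 223, 465 and 219 CPM against 238, 87.4 and 749 CPM, so that mouse 8 was far above and mouse 7 far below the rest. The summed level of the 15 monocyte and macrophage genes was 1954 to 3805 CPM in the Tet2+/+ and 2549 to 6037 CPM in the Tet2-/- mice, and 0 passed the edgeR test (1 had an unadjusted p under 0.05, and DESeq2 called 1). Their mean log2 CPM had r = -0.04 with the class II profile over the 6 mice, and r = 0.79 without mice 7 and 8. Of the conventional dendritic cell list, Itgax (CD11c) had 15.8 to 58.7 CPM and Xcr1, a marker of cross-presenting dendritic cells, 0.633 to 8.73 CPM, and the list mean had r = 0.32 with the profile over 6 mice and -0.38 without mice 24 and 19. The plasmacytoid list mean had r = 0.69 (rho = 0.83), and 0.20 without mice 23 and 19. These values moved with the mice that were left out. In the plasmacytoid list, Siglech had 2.09, 2.41 and 1.62 CPM against 0.316, 0.386 and 0.434 CPM. Its mice did not overlap, and its log2 fold change of -2.42 had an adjusted p of 0.185 by edgeR and of 0.00102 by DESeq2. Fcer2a (CD23), of the B cell list, had 1.196, 7.44 and 3.10 CPM against 0.601, 0.772 and 0.651 CPM (log2 fold change -2.53, adjusted p = 0.451 by edgeR and 0.0270 by DESeq2). Blast and granule genes were abundant in all libraries, with 4110 to 4527 CPM for Mpo (myeloperoxidase) in the Tet2+/+ and 2662 to 3394 CPM in the Tet2-/- mice. Mpo and Cd34 were lower and Ms4a3 higher in the Tet2-/- mice without overlap, and none of the 3 passed the edgeR test (adjusted p = 0.664, 0.582 and 0.580). The blast list mean had r = 0.23 with the profile, and 0.88 without mice 23 and 8. T cell genes were low (Cd3e 1.14 to 4.24 CPM). The median log2 fold changes were -0.57 for the 9 tested genes of the plasmacytoid list, -0.22 for conventional dendritic cells, 0.89 for monocytes and 0.33 for blast genes. With H2-DMa alone, the list means had r = -0.86 for blast genes, 0.49 for B cells, 0.57 for conventional and 0.61 for plasmacytoid dendritic cells and 0.60 for monocytes. Without the 2 mice farthest from each list's median, these values were -0.38, 0.59, 0.81, -0.07 and 0.35. The parts of these cells in the members' levels were not tested.

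Several other marker genes were high in a single library. The haemoglobin gene Hbb-bt had 83.0 CPM in mouse 19 and 0.775 to 9.71 CPM in the other mice, and the T cell receptor gene Trbc1 had 51.1 CPM in mouse 19 and 2.01 to 9.19 CPM elsewhere. Cd209a, a gene of monocyte-derived dendritic cells, had 56.1 CPM in mouse 23 and 0.772 to 11.8 CPM elsewhere (log2 fold change -3.11, adjusted p = 0.591). Flt3, a cytokine receptor of dendritic and progenitor cells, had 60.4 CPM in mouse 5 and 4.15 to 16.1 CPM in the others. None of these single-mouse peaks fell on the mice that were low in class II, mice 24 and 8. In the B cell list, Cd79b, Bank1 and Cd79a were the most abundant (14.1 to 47.7, 5.85 to 22.3 and 2.17 to 12.2 CPM), and Ms4a1 (CD20) had a log2 fold change of -0.97. Among monocyte genes, Ly6c2 had 1049 to 2993 CPM (log2 fold change 0.89, adjusted p = 0.512 by edgeR and 0.0248 by DESeq2) and F13a1 26.4 to 875 CPM, and the log2 fold changes of Fcgr1 and F13a1 were 1.496 and 1.41 (adjusted p = 0.743 and 0.783). In the plasmacytoid list, Runx2, Bst2 and Tcf4 were the most abundant, and Ly6d and Cd300c had log2 fold changes of -1.44 and -0.57. Of the blast genes, Itgam (CD11b) had 765 to 3134 CPM and Ptprc (CD45) 762 to 1221 CPM, while Ly6g, Cd34 and Elane had log2 fold changes of 1.77, -1.41 and 1.19 (adjusted p = 0.710, 0.582 and 0.676).

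**Figure D4:**
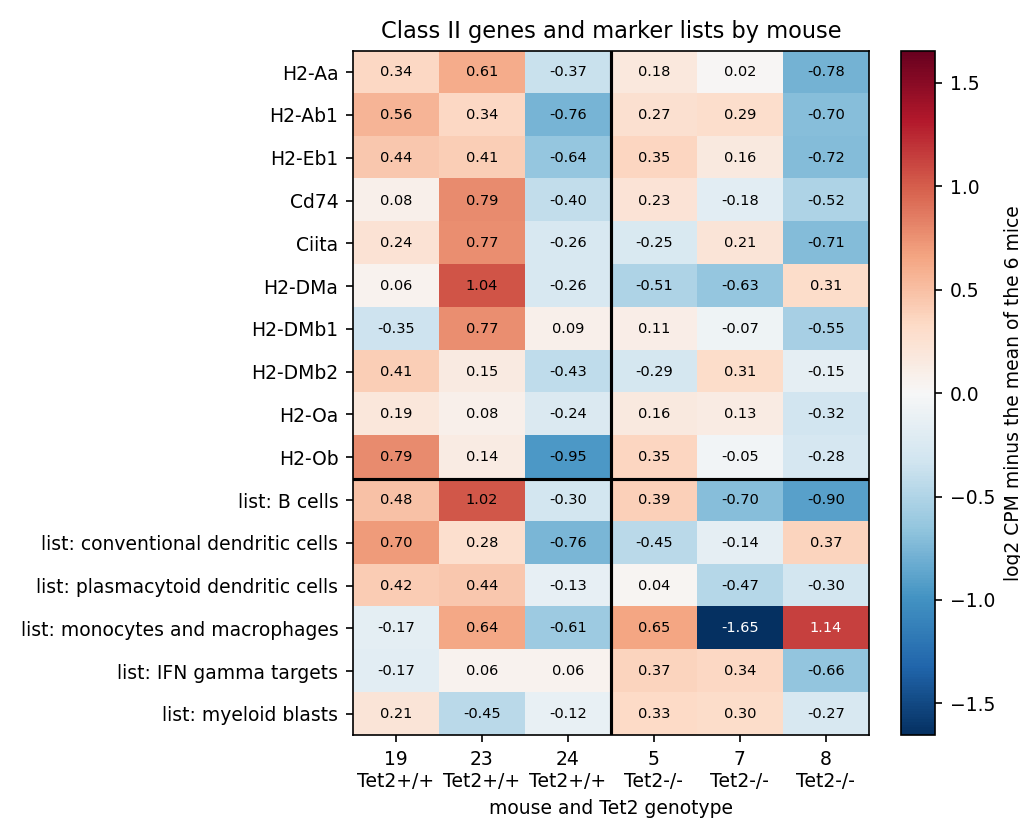
Log2 CPM minus the mean of the 6 mice for the 10 class II genes (upper rows) and for the mean of 6 gene lists (lower rows), by mouse and Tet2 genotype; red is above and blue below the mean. Mice 24 and 8 are low in H2-Aa, H2-Ab1, H2-Eb1 and Cd74, and the B cell row is lowest in mice 7 and 8 while the monocyte row is highest in mouse 8.

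Other genes of the class II region added little. The pseudogene H2-Ea-ps had 0 reads in all 6 libraries, where a count of 0 allows up to 3 reads, H2-Pb had at most 0.070 CPM, and H2-Eb2 had 0.217 to 1.02 CPM. Without an E alpha chain, H2-Eb1 transcript was thus present without a detected partner.

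The regulators of class II transcription were tested as a list of 18 genes, chosen with earlier results known. Of these, 0 passed the adjusted threshold by edgeR, 0 had an unadjusted p under 0.05, DESeq2 called 0, and the median log2 fold change was 0.16. Rfx5, the DNA-binding subunit of RFX, had 24.5, 34.9 and 24.9 CPM against 19.99, 22.8 and 22.9 CPM. All Tet2-/- mice were below all Tet2+/+ mice for Rfx5, with a log2 fold change of -0.36 and an adjusted p of 0.701. Nfyc, a subunit of the Y-box factor NF-Y, had 47.0, 46.2 and 43.4 CPM against 47.8, 48.8 and 53.7 CPM (log2 fold change 0.14, adjusted p = 0.848). Irf4, an interferon regulatory factor of lymphoid and dendritic cells, had 3.83, 6.91 and 3.45 CPM against 3.26, 1.35 and 3.09 CPM (log2 fold change -0.88, adjusted p = 0.684). These 3 genes of 18 did not overlap between the genotypes, beside the 7.71% and 8.24% of all genes given above. Spi1 (PU.1) had 291 to 511 CPM, the interferon gamma receptor chain Ifngr1 156 to 386 CPM and the kinase Jak1 243 to 354 CPM, with log2 fold changes of 0.31, -0.24 and 0.19. The log2 fold changes of Socs1, an inhibitor of the pathway, and Nfyb were 0.51 and 0.46.

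Of 15 further targets of interferon gamma, which induces Ciita in many cells, 0 passed the edgeR test (1 had an unadjusted p under 0.05, and DESeq2 called 0) and the median log2 fold change was 0.23. Tap1 and the immunoproteasome genes Psmb8 and Psmb9, which serve class I presentation, were the most abundant, with 70.9 to 256, 103 to 161 and 56.1 to 147 CPM. Nlrc5, the class I counterpart of Ciita, had 26.7, 20.1 and 26.2 CPM against 43.2, 72.1 and 8.79 CPM, with a log2 fold change of 0.77 and an adjusted p of 0.804. Mouse 7 was thus highest in Nlrc5 and Tap1 and lay between the other mice in H2-Aa, H2-Ab1, H2-Eb1, Cd74 and Ciita but lowest in H2-DMa. Gbp4, a guanylate-binding protein gene, had 6.10, 10.5 and 15.9 CPM against 5.31, 5.21 and 2.39 CPM (log2 fold change -1.33, unadjusted p = 0.025, adjusted p = 0.582). The chemokine gene Cxcl9 had a log2 fold change of 1.37 at a mean of 1.17 CPM (adjusted p = 0.679). The list mean had r = 0.54 with the class II profile over 6 mice, and r = -0.22 without mice 8 and 5.

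The genes that cut and route the invariant chain and class II molecules gave 0 of 14 past the adjusted threshold of edgeR (2 had an unadjusted p under 0.05, and DESeq2 called 1), with a median log2 fold change of 0.31. Cathepsin S, which removes most of the invariant chain in professional presenting cells, is encoded by Ctss and had 118, 349 and 126 CPM against 296, 31.7 and 527 CPM. Its order over the mice was that of Csf1r at the ends, with mouse 8 highest and mouse 7 lowest. Lgmn, the asparagine endopeptidase, ranged from 2.25 CPM in mouse 7 to 114 CPM in mouse 8 (log2 fold change 1.22, adjusted p = 0.812). Ctsd, which encodes cathepsin D, had 421, 461 and 413 CPM against 595, 614 and 620 CPM, so that the genotypes did not overlap. Its log2 fold change of 0.50 had an adjusted p of 0.564 by edgeR and of 0.0176 by DESeq2. Rab7, a small GTPase of late endosomes, had 308, 275 and 259 CPM against 363, 444 and 372 CPM (log2 fold change 0.49, unadjusted p = 0.028, adjusted p = 0.591). The protease inhibitor gene Cst3 and cathepsin B (Ctsb) were abundant too, at 321 to 721 and 284 to 713 CPM, with log2 fold changes of -0.18 and 0.47. March1, the ligase that sends surface class II for degradation, had 45.1 to 77.7 CPM and a log2 fold change of 0.20 (adjusted p = 0.849).

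Co-stimulatory genes and partners of the invariant chain also gave 0 of 9 past the edgeR threshold (0 with an unadjusted p under 0.05, 0 by DESeq2), with a median log2 fold change of 0.33. Cd86, the B7-2 ligand of CD28, had 7.72, 2.52 and 1.13 CPM against 2.69, 10.5 and 9.44 CPM (log2 fold change 0.99, adjusted p = 0.790), and Cd40 had 0.422 to 1.54 CPM (log2 fold change 0.36). Cd44 and Cxcr4, which form receptors with the invariant chain for the cytokine MIF, had 252 to 634 and 173 to 570 CPM. Mif itself ranged from 17.6 CPM in mouse 7 to 106 CPM in mouse 5 (log2 fold change 0.37), and Icosl had 69.2 to 115 CPM.

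Stoichiometry within the pathway was compared as ratios of TPM, which the shared rise and fall of the genes does not touch. H2-Aa over H2-Ab1 was 1.33 ± 0.288 in Tet2+/+ and 1.26 ± 0.146 in Tet2-/- blasts (n = 3 each), with p = 0.7 by the exact permutation test. Cd74 over H2-Aa was 2.32 ± 0.375 and 2.43 ± 0.418 (exact p = 0.7), and no mouse left the range from 1.92 to 2.86. H2-DMa over the sum of both H2-DMb genes was 0.833, 1.24 and 0.643 in the Tet2+/+ and 0.595, 0.530 and 1.26 in the Tet2-/- mice. Mice 23 and 8 stood above the other 4 here. The ratio of H2-O to H2-DM, inhibitor to enzyme, lay between 0.0651 in mouse 23 and 0.166 in mouse 19 and did not separate the genotypes (exact p = 0.7). In all 7 ratios the genotypes overlapped, and the smallest exact p was 0.6.

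The transcripts of each gene were then compared by their share of the gene's reads. Of 33 transcripts of the members, 19 in 8 genes had enough reads and a mean share between 5% and 95%. In 2 of 19 the genotypes did not overlap, which was below the 13.8% of all transcripts that passed the same filter. Both belonged to H2-Ab1. The coding transcript H2-Ab1-201 took 81.9%, 83.7% and 82.6% of the reads in the Tet2+/+ mice, against 92.6%, 86.9% and 90.1% in the Tet2-/- mice. The short transcript H2-Ab1-203, annotated as retaining an intron, took 10.1%, 7.35% and 6.90% against 3.004%, 4.60% and 4.69%. Each difference had an exact permutation p of 0.1, the smallest this design can give. Shares within a gene depend on each other, so these 2 differences are not separate results. On counts scaled by transcript length the log2 fold change of H2-Ab1 was -0.37 with an adjusted p of 0.873, against -0.13 on the plain counts.

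Cd74 has a longer form, Cd74-202, with an added exon of 192 bases at 18:60811294-60811485. In mouse and human, a longer invariant chain called p41 differs from the p31 form by 1 alternative exon that encodes a cathepsin-binding domain. Cd74-202 took 10.5%, 19.3% and 12.4% of the Cd74 reads in the Tet2+/+ and 10.8%, 14.8% and 12.5% in the Tet2-/- mice. Mouse 23, with the most Cd74, had the highest share of the long form, and the genotypes overlapped (exact p = 0.9).

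**Figure D5:**
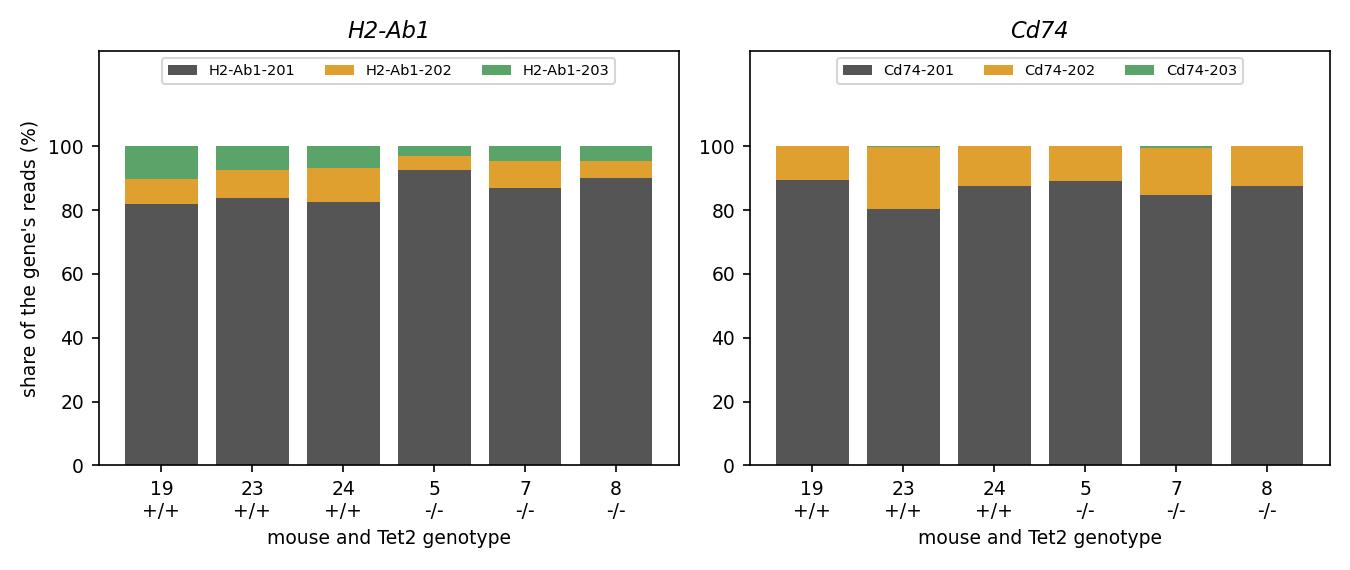
Share of each gene's reads assigned to its transcripts (y axis, percent) in each mouse for H2-Ab1 (left) and Cd74 (right). H2-Ab1-201 takes 81.9% to 83.7% in the 3 Tet2+/+ mice and 86.9% to 92.6% in the 3 Tet2-/- mice, while the long form Cd74-202 takes 10.5% to 19.3% with overlap.

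Ciita is known to start from several promoters, used by dendritic cells and macrophages, by B cells and plasmacytoid dendritic cells, and after interferon gamma. Its 8 annotated transcripts begin in 3 groups, and the second group begins 8119 bases after the first and the third 1568 bases after the second. Transcripts of the first group took 14.8%, 11.2% and 11.9% of the Ciita reads in the Tet2+/+ and 7.22%, 14.8% and 16.0% in the Tet2-/- mice. Those of the second group took 81.8% to 91.6%, and those of the third at most 2.57%, which was 13.7 reads in mouse 23. No group separated the genotypes. Ciita-201, of the second group, also runs 1992 bases past the end of every other Ciita transcript, so that reads there are assigned to it wherever the molecule began.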

How the data were processed

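Per the authors' methods, bulk RNA was made into TruSeq RNA v2 libraries, which do not mark strand, and quantified with Salmon 0.12.0 against Ensembl 94 transcripts of GRCm38. The authors deposited Salmon's estimated count (NumReads) for each transcript, an expected count without scaling between mice, and its TPM; the deposited transcript and effective lengths, in bases, were also read. Transcripts were mapped to GENCODE M21 genes (112 of 136288 had no gene, holding 0.0307% to 0.0416% of reads), and counts were summed per gene and rounded. Genes whose scaled counts summed to at least 10 were compared with edgeR 4.0.16 (quasi-likelihood, TMM, no covariates; Benjamini-Hochberg, threshold 0.05) in R 4.3.3, tested on simulated data. Library totals of 13036643 to 32855343 set the precision; each mouse is 1 replicate. DESeq2 1.42.0, other scalings and filters, and leaving out each mouse were the alternatives. Correlations used log2(CPM + 0.5). Ratios and shares used exact permutation tests in SciPy 1.17.1. Named genes were all members; of each list, the 3 most abundant, the 3 with the largest change among genes of at least 1 CPM and those past the threshold; and the 10 most like the class II profile. Some genes that this rule names are not reported here. Others (genes whose mice do not overlap, markers, role-defining genes) were added with their values in view. The members and lists were chosen with earlier results of these data known. Without strand, reads of H2-Oa and BC051537 (10.8% of 31-base words shared) cannot be separated, nor fully those of Ciita and Dexi. Tet2 had 73.6, 79.5 and 98.4 CPM in the Tet2+/+ and 111, 79.4 and 96.7 CPM in the Tet2-/- mice; its gene total includes exons outside a floxed part and does not check the labels.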

Additional observations from a re-analysis of the deposited data

How the results depend on the processing

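No alternative brought a member past the threshold (130 values under 13 alternatives, lowest adjusted p 0.526), and 0 members were lower or higher in each. No paired analysis was possible because the genotypes share no mouse number. Over all genes, the 10 lower calls became 326 with DESeq2 and 322 with DESeq2 on length-scaled counts, 5 with edgeR on length-scaled counts and 62 without a filter; the 0 higher calls became 59, 64, 0 and 4, and 1 with RLE factors or filterByExpr. Leaving out a mouse gave 0 to 7 lower calls, and 0 without mouse 5, 7 or 8. Members with no overlap between the genotypes numbered 0 to 4 when a mouse was left out: 4 without mouse 24, and 1 (H2-DMa) without mouse 8, beside 9.82% and 13.7% of genes lower in the same way. The sign of 13 member values turned, all with adjusted p of at least 0.876, and the cause was not tested. These were H2-Ab1, H2-Eb1, H2-DMb2, H2-Oa and H2-Ob without mouse 19, Cd74 and H2-Oa without mouse 23, H2-DMb2 without mouse 5, and H2-Ab1, H2-Eb1, H2-Oa and H2-Ob without mouse 8. Without a filter it was 0.0016 (H2-Oa). The ranges over the left-out mice were -0.60 to 0.0043 (Cd74), -0.44 to 0.13 (H2-Ab1), -0.43 to 0.11 (H2-Eb1), -0.33 to 0.085 (H2-DMb2), -0.14 to 0.14 (H2-Oa), -0.49 to 0.35 (H2-Ob), -0.62 to -0.15 (H2-Aa), -0.62 to -0.049 (H2-DMb1), -0.79 to -0.23 (Ciita) and -0.97 to -0.14 (H2-DMa). With library size alone the median gene moved to -0.17, and the members ran from H2-DMa at -0.78 to H2-Oa at -0.19. Per length, H2-DMa and H2-DMb1, and H2-Oa and H2-Ob, changed places in order when CPM per base replaced TPM. The least read member was H2-Ob in mouse 24, with 55 reads, where counting error is widest.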
